A study of Mus musculus with 27 samples.

Results

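Colon organoids from ethanol-fed mice were compared with colon organoids from water-fed mice, across all genes, in the 4 colon organoid libraries among the 27 libraries of the series. The members were all libraries whose labels give colon as the organ and organoid as the material. Ethanol libraries 1 and 2 came from organoids of C57BL/6 mice that had been given 15% ethanol for 8 weeks, and control libraries 1 and 2 from organoids of C57BL/6 mice that had been given water for the same time. The labels name no genetic change in either group. According to its title, the series asks about colonic permeability and about what colon organoid stem cells turn into. The labels do not say whether ethanol was present in the culture medium, how long the organoids had been cultured or how old the mice were. Each library carries a donor number, and the same numbers recur under both treatments, so that a number alone does not identify an animal. Nothing in the labels says how many cultures fed a library, so the spread between libraries of a group may be partly technical.

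Organoids are cultures that grow from the stem cells of intestinal crypts and consist of epithelium. In the colon, stem cells at the crypt base divide under Wnt signalling and their progeny become absorptive colonocytes, mucus-secreting goblet cells or hormone-producing enteroendocrine cells as they move to the surface. Surface colonocytes carry a brush border, take up salt and water, and are joined by tight junctions made of claudins, occludin and scaffold proteins. The RNA was read by 3' tag sequencing, in which a transcript gives tags near its 3' end whatever its length. Levels are given as CPM, counts scaled to a common library total and by the TMM factor of each library (a factor that evens out differences in RNA composition).

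The label colon organoid was checked against markers. All 13 markers of gut epithelium had counts in all 4 libraries, and their summed level was 7733 and 8214 CPM in the ethanol libraries, against 5167 and 5701 CPM in the control libraries. Markers of the colon were uneven. Car1, the carbonic anhydrase of colonocytes, was present in every library. Aqp8, a water channel, had 5 and 25 counts in the ethanol libraries, against 0 and 347 counts in the control libraries, and Hoxb13, a gene of the hindmost gut, had counts (31) in control library 2 alone. The 9 small intestine markers summed to 221 and 208 CPM in the ethanol libraries, against 33.9 and 58.9 CPM in the control libraries. Markers of other cell types were counted at lower levels. Those of macrophages and dendritic cells were the exception among the immune lists, with 794 and 301 CPM in the ethanol libraries, against 158 and 88.9 CPM in the control libraries. The B and plasma cell markers summed to 2.43 and 3.46 CPM in the ethanol libraries, against 7.83 and 40.95 CPM in the control libraries. Their direction was opposite to that of the macrophage list. The T and innate lymphocyte markers summed to 21.6 and 16.3 CPM in the ethanol libraries, against 3.19 and 8.32 CPM in the control libraries, and Cd3e, Cd4 and Cd8a had no count in any library. The fibroblast markers summed to 74.3 and 30.7 CPM in the ethanol libraries, against 27.3 and 81.3 CPM in the control libraries, with Vim counted in 3 libraries, Col1a1 at 51.8 CPM in control library 2, and no count of Lum or Postn. The smooth muscle markers summed to 115 and 115 CPM in the ethanol libraries, against 59.2 and 79.3 CPM in the control libraries. Most of these sums came from Mylk, which the tight junction list holds too. Mylk had 112.1 and 81.65 CPM in the ethanol libraries, against 58.6 and 72.95 CPM in the control libraries. The endothelial markers summed to 1.21 and 8.41 CPM in the ethanol libraries, against 0.58 and 0 CPM in the control libraries. The part of these cells in the results was not tested.

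Control libraries differed strongly from each other. Counts outside Rn45s, the ribosomal RNA precursor, were 2843857 and 1345224 in the ethanol libraries, against 2036195 and 818240 in the control libraries, and Rn45s itself took 38.1% and 48.3% of the counts in the ethanol libraries, against 27.4% and 38.8% in the control libraries. At a matched depth of 818240 counts, 14198 and 13279 genes would be detected in the ethanol libraries, against 11511 and 9950 genes in the control libraries. Across 10873 genes, Spearman's rho was 0.865 between the ethanol libraries and 0.637 between the control libraries, a description in which genes are not independent replicates. Of the 5080 genes with at least 100 counts in ethanol library 1, 4 had no count in ethanol library 2, whereas of the 4464 genes with at least 100 counts in control library 1, 225 (5.04%) had no count in control library 2. A floor of 3 counts corresponded to 0.728 and 1.48 CPM in the ethanol libraries and to 0.87 and 1.92 CPM in the control libraries, and intervals and floors cover counting error only. In bulk libraries, fewer cells of a type and less RNA per cell cannot be told apart.

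**Figure D1:**
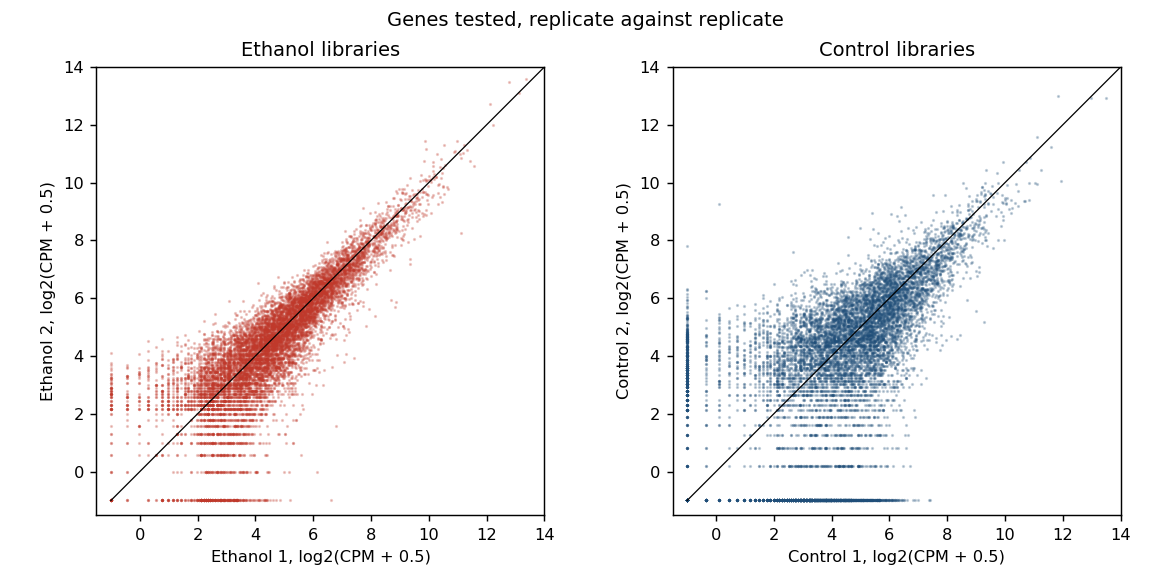
Each point is a gene of the 10873 tested; the axes give log2(CPM + 0.5) in the 2 ethanol libraries (left panel) and in the 2 control libraries (right panel), the line marks equal levels, and Rn45s lies beyond the axes. The cloud is narrow for the ethanol libraries and wide for the control libraries, where many genes well counted in control library 1 sit at the bottom edge with no count in control library 2.

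With edgeR's quasi-likelihood test on the 4 libraries, 0 of 10873 genes (0%) passed a Benjamini-Hochberg adjusted p of 0.05. The smallest adjusted p was 0.332, and 887 genes had an unadjusted p under 0.05. DESeq2 called 131 genes and limma-voom 88 on the same libraries. With a library left out, so that its group held 1 library taken to vary like the other group, edgeR called 1548 genes without control library 1, 194 without control library 2, 39 without ethanol library 1 and 23 without ethanol library 2. An exact permutation test of a single value over 2 against 2 libraries cannot give a two-sided p below 0.333. The text therefore rests on values per library and on a descriptive rule: a gene was called set apart where the lowest library of the higher group was at least 2-fold above the highest library of the lower group, with libraries under 3 counts on the lower side put at their floor. By this rule 1028 genes were set apart higher in the ethanol libraries (9.45% of those tested) and 363 lower (3.34%). Of the 1028, 842 also had Poisson 95% intervals that did not touch between the groups, as did 275 of the 363. No count was found in either control library for 296 of the higher genes, and none in either ethanol library for 23 of the lower genes. With any 1 library left out, when fewer values have to be apart, 1711 to 3256 genes were set apart higher and 668 to 1863 lower. Over all tested genes the median log2 fold change was 0.15. The shares of 9.45% and 3.34% are the ones to set beside the list counts below, but they depended on abundance. Under a mean of 20 counts, 20.9% of genes were set apart higher and 6.05% lower. From 20 to 100 counts the shares were 7.61% and 3.92%, and from 100 to 500 counts 5.2% and 1.33%. For list members with few counts, 9.45% is therefore a low background.

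Genes that averaged 500 counts or more were the best measured: their median fold between replicates was 1.24 in the ethanol group and 1.46 in the control group, against 1.96 and 4.84 for genes under a mean of 20 counts. Fitted on these 634 genes alone, edgeR called 26 higher in the ethanol libraries (4.1%) and 0 lower (0%), with 164 genes at an unadjusted p under 0.05. By the descriptive rule 66 of the 634 were set apart higher (10.4%) and 2 lower (0.315%). The minimum was a mean of raw counts over all 4 libraries, of which ethanol library 1 was the deepest. A gene could therefore enter through its ethanol counts alone, so the balance of higher and lower genes here is not independent of the filter. The fit on the 634 genes was an alternative to the planned fit over all 10873 genes. At a mean minimum of 100 counts, edgeR called 0 of 3798 genes. The 26 calls on the 634 genes depended on which libraries entered and on the tool. Without control library 1 the same fit called 0 of 570 genes and without ethanol library 1 it called 0 of 446, while DESeq2 called 38 higher and 27 lower. Adjusted p-values of edgeR quoted for single genes below come from the fit on the 634 genes. For a gene that entered through its ethanol counts, the p-value is not independent of the filter either. In the edgeR fit over all 10873 genes none passed, and the smallest adjusted p was 0.332.

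Genes of surface colonocytes were often set apart. Of 20 tested members of a surface colonocyte list, 9 were set apart higher and 0 lower, and the median log2 fold change was 1.54, beside 0.15 over all tested genes. Car1 (chromosome 3, 14766216 to 14808368, GRCm38) had 4404 and 6735 CPM in the ethanol libraries, against 539 and 566 CPM in the control libraries. The groups were far apart and the 2 controls were close to each other, with a log2 fold change of 3.33 ± 0.40 (SE, n = 2 each, edgeR adjusted p = 0.0181 in the model fitted across the 634 genes). Muc13, a transmembrane mucin of the apical surface, had 1126 and 1528 CPM in the ethanol libraries, against 93.4 and 170 CPM in the control libraries (edgeR adjusted p = 0.0235). Mall, a membrane protein of the MAL family, had 477 and 376 CPM in the ethanol libraries, against 71.4 and 59.5 CPM in the control libraries (edgeR adjusted p = 0.0235). Lypd8, a secreted protein that keeps flagellated bacteria away from the colon surface, had 1341 and 1486 CPM in the ethanol libraries, against 76.9 and 454 CPM in the control libraries. Its groups did not overlap, but as a fold control library 1 lay further from control library 2 than control library 2 did from the ethanol libraries, and the gene was not called (edgeR adjusted p = 0.139). Car4, a membrane-bound carbonic anhydrase, had 70.1 and 96 CPM in the ethanol libraries, against 0 and 31.4 CPM in the control libraries. Krt20, a keratin of differentiated surface cells, had 442 and 704 CPM in the ethanol libraries, against 62.4 and 282 CPM in the control libraries, a gap too small for the rule.

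Guanylin is a peptide that colonocytes release into the lumen, where it acts through the receptor guanylate cyclase C on salt and water transport. Guca2a, its gene (chromosome 4, 119637704 to 119639471), had 989 and 779 CPM in the ethanol libraries, against 34.5 and 55 CPM in the control libraries. The lower ethanol library was 14.2-fold above the higher control library, with a log2 fold change of 4.31 ± 0.45 (SE, n = 2 each, edgeR adjusted p = 0.0181 in the model fitted across the 634 genes). Gucy2c, the receptor, had 106 and 134 CPM in the ethanol libraries, against 24.7 and 10.2 CPM in the control libraries. Guca2b, the gene of uroguanylin, was barely counted, with 36 and 5 counts in the ethanol libraries, against 2 and 0 counts in the control libraries, and did not pass the filter on low counts. Slc9a3, the sodium/proton exchanger NHE3 that guanylate cyclase C signalling restrains, had 57 and 50 counts in the ethanol libraries and none in the control libraries. Its lower ethanol library was at least 7.21-fold above the floor of 3 counts of control library 2, the higher floor of the 2 controls, and bounds for other genes with no control count are given against the same floor. Of the 5 tested members of this system, 3 (60%) were set apart higher and 0 lower, beside 9.45% higher over all tested genes. Guca2a and Slc9a3 are also in the surface colonocyte list, so the counts of these lists overlap.

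The brush border is the layer of microvilli on absorptive cells. Of 20 tested brush border genes, 7 were set apart higher and 0 lower (median log2 fold change 1.25). Cdhr5, a protocadherin of the links between microvilli (chromosome 7, 141269083 to 141276786), had 833 and 817 CPM in the ethanol libraries, against 77.2 and 74.9 CPM in the control libraries. Replicates of each group lay close together, and the log2 fold change was 3.44 ± 0.36 (SE, n = 2 each, edgeR adjusted p = 0.0181 in the model fitted across the 634 genes). Eps8, an actin-capping protein of microvilli, had 170 and 322 CPM in the ethanol libraries, against 63.2 and 69.1 CPM in the control libraries. Tmigd1, a membrane adhesion protein, had 216 and 305 CPM in the ethanol libraries, against 39.2 and 13.4 CPM in the control libraries. Vil1, the microvillar actin bundler villin, was less separated, with 194 and 362 CPM in the ethanol libraries, against 118 and 202 CPM in the control libraries, and these ranges overlapped.

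**Figure D2:**
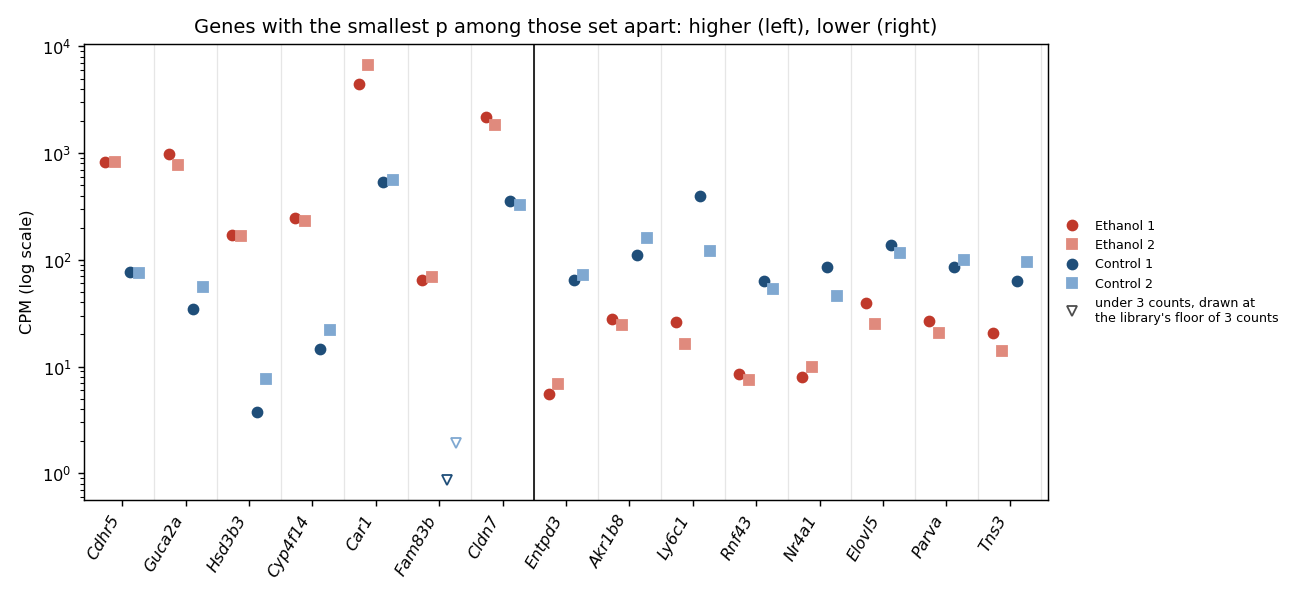
CPM on a log scale in each library for 7 genes set apart higher (left of the black line) and 8 set apart lower (right) that were among those with the smallest edgeR p of the set-apart genes that averaged 50 counts or more; filled symbols are libraries, open triangles mark fewer than 3 counts. For Cdhr5 and Cldn7 the points of each group nearly coincide, whereas the controls of Ly6c1 lie apart at 400 and 120 CPM.

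Upstream sequence is shown for the genes of guanylin and Cdhr5, which had among the smallest p-values, and for Slc51a, which encodes a subunit of the bile acid exporter and was set apart. These 3 were chosen after their values were seen, from genes with a unique entry in the RefSeq promoter table (GRCm38.p6). Each sequence is the 150 bases before the start that RefSeq annotates, 5′ to 3′ on the gene's strand. For Guca2a, GENCODE places the start further upstream, so that the last 28 bases of the window lie inside the gene as positioned above. Capitals mark matches on either strand to short letters known as a core of 4 elements. For the TATA box these were TATAAA. For factors of the GATA family the letters were AGATAA. For the nuclear receptor HNF4 they were AAAGTCC, and for caudal (CDX) factors they were TTTATG. None of the matches overlap.
Guca2a, chr4:119637582-119637731, plus strand: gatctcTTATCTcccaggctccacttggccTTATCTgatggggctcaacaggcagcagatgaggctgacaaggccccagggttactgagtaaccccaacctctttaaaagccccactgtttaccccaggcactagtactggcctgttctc
Cdhr5, chr7:141276787-141276936, minus strand: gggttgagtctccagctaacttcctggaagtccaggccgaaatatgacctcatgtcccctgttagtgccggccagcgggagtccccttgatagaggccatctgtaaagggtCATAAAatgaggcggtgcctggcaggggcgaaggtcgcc
Slc51a, chr16:32487880-32488029, minus strand: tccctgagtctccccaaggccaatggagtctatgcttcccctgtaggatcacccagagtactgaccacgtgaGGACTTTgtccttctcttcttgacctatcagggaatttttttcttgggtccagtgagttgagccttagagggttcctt
The Guca2a window held 2 matches to the GATA letters, which are found in 5.65% of the 32851 windows of this length in the table. The Cdhr5 window held a match to the CDX letters (6.33% of windows), and the Slc51a window a match to the HNF4 letters (2.19% of windows). No window held TATAAA (7.57% of windows). These matches describe the sequence and not binding.

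Genes better known from the small intestine stood higher as well. Of 11 tested digestive enzymes, 5 were set apart higher and 0 lower (median log2 fold change 2.16), and of 13 tested nutrient transport genes 5 were set apart higher and 0 lower (median 1.72). Enpep, an aminopeptidase, had 33.5 and 28.7 CPM in the ethanol libraries, against 0.29 and 0 CPM in the control libraries. Sis, sucrase-isomaltase, was uneven with 129 and 14 counts in the ethanol libraries, against 1 and 1 count in the control libraries. Fabp2, the intestinal fatty acid binding protein, had 61.4 and 102 CPM in the ethanol libraries, against 8.7 and 29.4 CPM in the control libraries. Slc3a1, a subunit of the transporter for cystine and basic amino acids, had 51.2 and 53 CPM in the ethanol libraries, against 7.25 and 0 CPM in the control libraries.

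Lipid and bile acid genes were set apart in the same direction where they were set apart at all. Of 14 tested genes of chylomicron assembly and fat absorption, 3 (21.4%) were set apart higher and 0 lower, beside 9.45% higher over all tested genes. Apob, the structural protein of chylomicrons, had 240 and 155 counts in the ethanol libraries and none in the control libraries. Its lower ethanol library was at least 30.3-fold above the higher floor of the controls, a bound that covers counting error only. Apoa1, another apolipoprotein, had 44.9 and 34.1 CPM in the ethanol libraries, against 3.77 and 5.76 CPM in the control libraries. Of 7 tested genes of bile acid transport and sensing, 5 were set apart higher and 0 lower (median log2 fold change 3.68, or 3.44 with the gene lacking a control count at its bound). Slc10a2, the apical bile acid importer, had 47.8 and 40.6 CPM in the ethanol libraries, against 5.8 and 0 CPM in the control libraries. Slc51a, a subunit of the basolateral bile acid exporter, had 110 and 74.7 CPM in the ethanol libraries, against 0 and 5.12 CPM in the control libraries. Slc51b, the other subunit, had 153 and 42 counts in the ethanol libraries and none in the control libraries, at least 10.8-fold above the same floor. Nr1h4, the bile acid receptor FXR, had 38.8 and 60.9 CPM in the ethanol libraries, against 0 and 8.32 CPM in the control libraries. Vdr, the vitamin D receptor that also senses secondary bile acids, had 96.1 and 156 CPM in the ethanol libraries, against 15.4 and 10.2 CPM in the control libraries.

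Ion and water transport genes of the colon were mixed. Of 25 tested, 5 were set apart higher and 2 lower (median log2 fold change 0.67). Atp1b1, the beta subunit of the sodium pump, had 746 and 659 CPM in the ethanol libraries, against 134 and 115 CPM in the control libraries (edgeR adjusted p = 0.0235). Slc9a2, the exchanger NHE2, had 99 and 78 counts in the ethanol libraries, against 3 and 0 counts in the control libraries. In the opposite direction, Aqp4, a basolateral water channel, had 6 and 0 counts in the ethanol libraries, against 13 and 73 counts in the control libraries. Atp12a, the proton/potassium pump of the distal colon, had 7 and 0 counts in the ethanol libraries, against 16 and 20 counts in the control libraries. These lower values rest on few counts.

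Enzymes that handle drugs and other foreign compounds held the highest shares of genes set apart higher among the lists with at least 10 tested members. Of 19 tested cytochrome P450 genes, 9 were set apart higher and 0 lower (median log2 fold change 2.02), and of 29 tested conjugating enzymes and carboxylesterases, 14 were set apart higher and 1 lower (median 1.26). Cyp3a13, a drug-metabolising P450, had 385 and 587 CPM in the ethanol libraries, against 56.3 and 30.7 CPM in the control libraries (edgeR adjusted p = 0.0235). Cyp4f14, a fatty acid hydroxylase, had 246 and 232 CPM in the ethanol libraries, against 14.5 and 21.8 CPM in the control libraries. Cyp2c65, an arachidonic acid-metabolising P450 of the gut, had 52.7 and 58.4 CPM in the ethanol libraries, against 8.99 and 6.4 CPM in the control libraries. Ces2c, a carboxylesterase, had 239 and 254 CPM in the ethanol libraries, against 5.51 and 24.3 CPM in the control libraries. Sult1b1, a sulfotransferase, had 69.2 and 111 CPM in the ethanol libraries, against 12.8 and 13.4 CPM in the control libraries. The exception was Ephx1, microsomal epoxide hydrolase, with 61.2 and 16.3 CPM in the ethanol libraries, against 202 and 183 CPM in the control libraries. Hsd3b3, a steroid dehydrogenase, had 169 and 167 CPM in the ethanol libraries, against 3.77 and 7.68 CPM in the control libraries. Of 11 tested drug and sterol efflux pumps, 3 were set apart higher and 0 lower. Abcb1a, P-glycoprotein, had 619 and 569 CPM in the ethanol libraries, against 87 and 161 CPM in the control libraries (edgeR adjusted p = 0.0416). Abcg2, another efflux pump, had 116 and 199 CPM in the ethanol libraries, against 0 and 12.2 CPM in the control libraries. The Cyp2c, Ces and Hsd3b families hold near-identical copies that may share reads, so a value for a single member is uncertain.

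**Figure D3:**
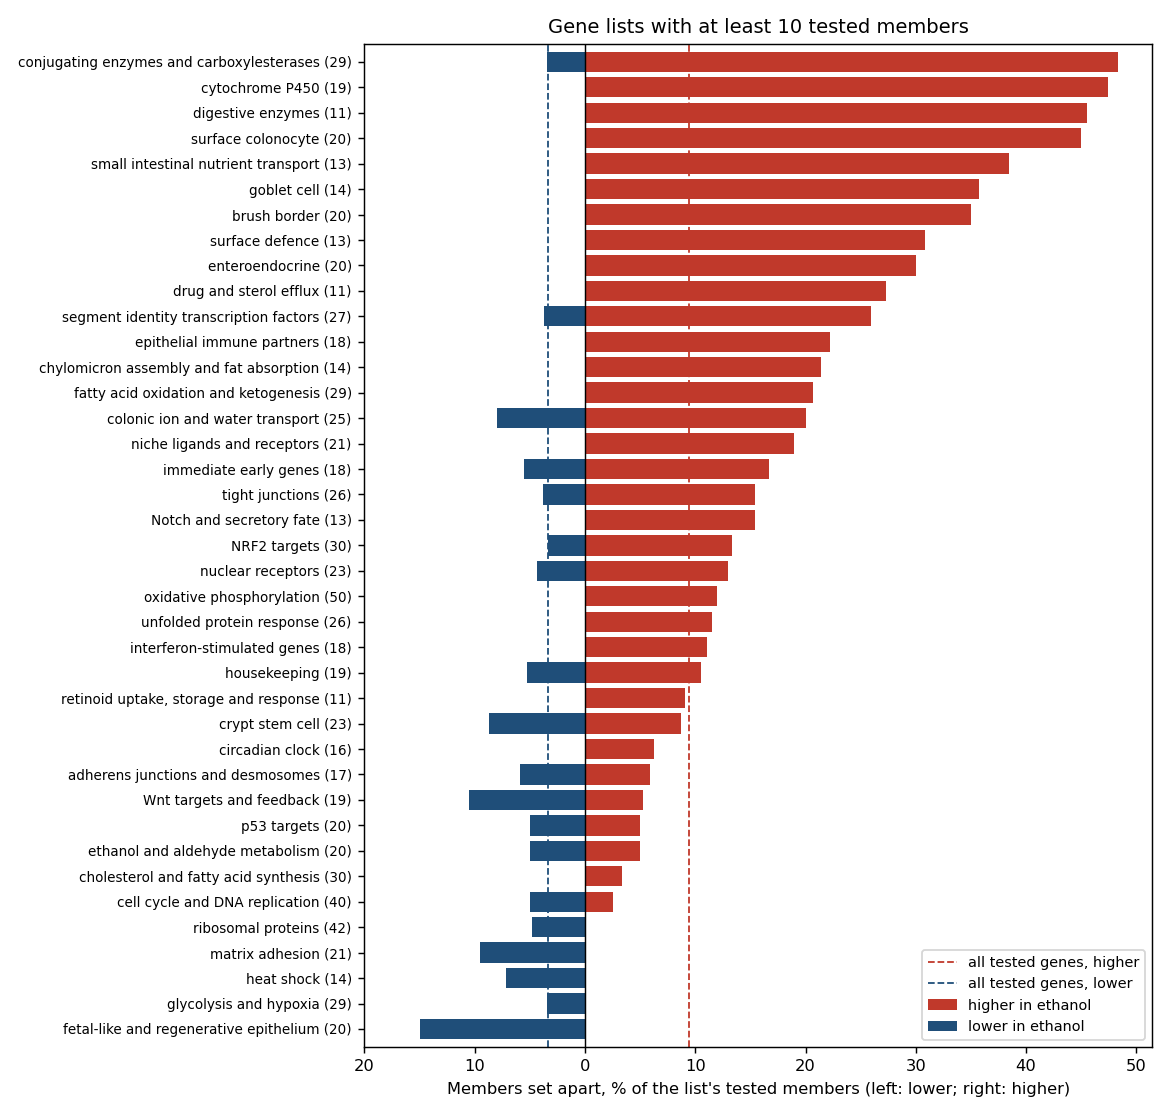
For each gene list with at least 10 tested members (number in brackets), bars give the percentage of tested members set apart higher (right) and lower (left) in the ethanol libraries; dashed lines mark the percentages over all tested genes, 9.45 and 3.34. Lists of conjugating enzymes, cytochrome P450s, digestive enzymes and surface colonocytes are at the top, and the ribosomal protein, matrix adhesion, heat shock, glycolysis and fetal-like lists have no higher member.

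Genes that handle ethanol did not stand apart as a group. Of 20 tested genes of ethanol and aldehyde metabolism, 1 was set apart higher and 1 lower, and the median log2 fold change was -0.19. Adh1, the class I alcohol dehydrogenase, had 16.8 and 15.3 CPM in the ethanol libraries, against 10.4 and 101 CPM in the control libraries. Aldh1a1, a cytosolic aldehyde and retinal dehydrogenase, had 579 and 496 CPM in the ethanol libraries, against 613 and 35.8 CPM in the control libraries. For both, the controls enclosed the ethanol values. Aldh2, the mitochondrial acetaldehyde dehydrogenase, had 687 and 345 CPM in the ethanol libraries, against 348 and 304 CPM in the control libraries, and these ranges overlapped (edgeR adjusted p = 0.399). Cyp2e1, the ethanol-oxidising P450, had 7 and 12 counts in the ethanol libraries and none in the control libraries, below the filter on low counts. The lower member was Akr1b8, an aldo-keto reductase, with 28.2 and 24.7 CPM in the ethanol libraries, against 111 and 161 CPM in the control libraries. Aldh1a7, the higher member, had 25 and 27 counts in the ethanol libraries, against 10 and 0 counts in the control libraries.

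Tight junction genes were mostly not set apart. Of 26 tested, 4 (15.4%) were set apart higher and 1 (3.85%) lower, beside 9.45% and 3.34% over all tested genes. The list's median log2 fold change was 0.45. Cldn7, a claudin along the whole lateral membrane (chromosome 11, 69964779 to 69967885), had 2188 and 1828 CPM in the ethanol libraries, against 357 and 328 CPM in the control libraries. Each group was tight, and the log2 fold change was 2.55 ± 0.35 (SE, n = 2 each, edgeR adjusted p = 0.0257 in the model fitted across the 634 genes). Cldn3, a sealing claudin, had 480 and 795 CPM in the ethanol libraries, against 238 and 172 CPM in the control libraries, and was not called (edgeR adjusted p = 0.0986). Cldn4, another sealing claudin, had 1202 and 1166 CPM in the ethanol libraries, against 508 and 687 CPM in the control libraries, a gap under 2-fold (edgeR adjusted p = 0.176). Cldn15, a claudin that forms cation channels, had 180 and 64 counts in the ethanol libraries, against 3 and 5 counts in the control libraries. Cldn2, another channel-forming claudin, had 131 and 32.7 CPM in the ethanol libraries, against 89.3 and 141 CPM in the control libraries, and its ranges overlapped. Cldn8, a sealing claudin of the distal colon, was the lower member with 6 and 0 counts in the ethanol libraries, against 20 and 9 counts in the control libraries. Ocln, occludin, had 63.8 and 80.7 CPM in the ethanol libraries, against 36 and 48 CPM in the control libraries, apart by less than 2-fold. Tjp1, the scaffold ZO-1, had 128 and 129 CPM in the ethanol libraries, against 177 and 43.5 CPM in the control libraries, which enclosed the ethanol values.

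Adherens junction, desmosome and matrix adhesion genes were mostly not set apart either. Of 17 tested adherens junction and desmosome genes, 1 was set apart higher and 1 lower. Epcam, an epithelial adhesion protein that binds Cldn7, had 1015 and 1199 CPM in the ethanol libraries, against 313 and 385 CPM in the control libraries, and was not called (edgeR adjusted p = 0.0696). Pkp1, a desmosomal plaque protein, had 16 and 4 counts in the ethanol libraries, against 78 and 37 counts in the control libraries. Of 21 tested matrix adhesion genes, 0 were set apart higher and 2 lower. Lama5, a laminin chain of the epithelial basement membrane, had 60.2 and 25.2 CPM in the ethanol libraries, against 159 and 169 CPM in the control libraries. Itgb6, an integrin subunit of injured epithelium, had 9.71 and 3.96 CPM in the ethanol libraries, against 24.7 and 37.1 CPM in the control libraries. Parva, which links integrins to actin, had 26.7 and 20.8 CPM in the ethanol libraries, against 86.2 and 99.8 CPM in the control libraries. Tns3, tensin 3 of focal adhesions, had 20.4 and 13.9 CPM in the ethanol libraries, against 63.5 and 96 CPM in the control libraries. None of 7 tested keratins was set apart. Krt7, a keratin of simple ductal epithelium, had 474 and 456 CPM in the ethanol libraries, against 1406 and 838 CPM in the control libraries (edgeR adjusted p = 0.139).

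**Figure D4:**
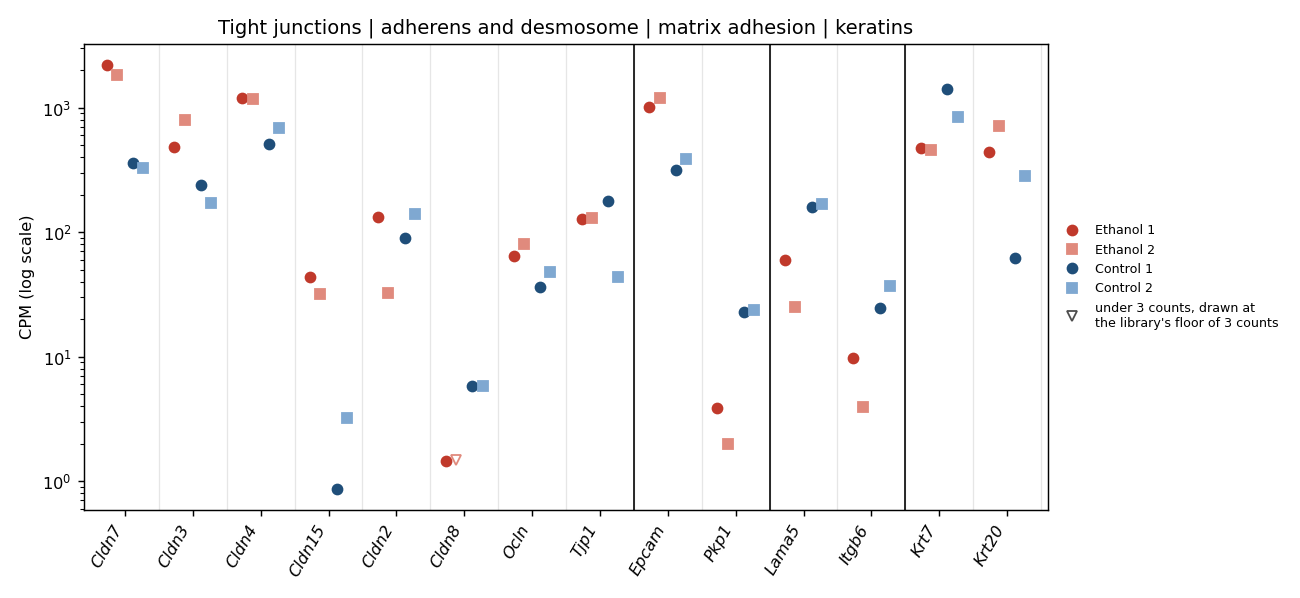
CPM on a log scale in each library for genes of tight junctions, adherens junctions and desmosomes, matrix adhesion and keratins; black lines part these groups and open triangles mark fewer than 3 counts. Cldn7, Cldn15 and Epcam are higher in both ethanol libraries, Pkp1, Lama5 and Itgb6 are lower, and the groups of Cldn2 and Tjp1 overlap.

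Several goblet cell genes were set apart higher, with wide controls, while enteroendocrine genes were divided. Of 14 tested goblet cell genes, 5 were set apart higher and 0 lower (median log2 fold change 1.23, or 1.19 with genes lacking a control count at their bound). Muc2, the gel-forming mucin of the colon, had 600 and 974 CPM in the ethanol libraries, against 31.3 and 347 CPM in the control libraries, a gap under 2-fold (edgeR adjusted p = 0.247). Zg16, a lectin of mucus granules, had 863 and 875 CPM in the ethanol libraries, against 57.4 and 269 CPM in the control libraries (edgeR adjusted p = 0.122). Tff3, the trefoil peptide secreted with mucus, had 521 and 460 CPM in the ethanol libraries, against 43.2 and 158 CPM in the control libraries (edgeR adjusted p = 0.103). Reg4, a marker of deep crypt secretory cells, had 819 and 1052 CPM in the ethanol libraries, against 23.2 and 279 CPM in the control libraries (edgeR adjusted p = 0.176). For Muc2, Zg16, Tff3 and Reg4 alike, control library 2 lay between control library 1 and the ethanol libraries. Atoh1, the transcription factor that opens the secretory fate, had 25 and 9 counts in the ethanol libraries, against 1 and 0 counts in the control libraries. Ern2, the goblet cell sensor of unfolded proteins, had 18 and 13 counts in the ethanol libraries and none in the control libraries. Of 20 tested enteroendocrine genes, 6 were set apart higher and 0 lower (median log2 fold change 1.22). The summed level of the list nevertheless was 884 and 1321 CPM in the ethanol libraries, against 206 and 2170 CPM in the control libraries, which enclosed the ethanol values. Among the 6 were transcription factors of endocrine cells: Neurod1 had 42 and 58 counts in the ethanol libraries, against 7 and 0 counts in the control libraries. Pax6 had 28 and 13 counts and Fev had 28 and 32 counts in the ethanol libraries, and neither had a count in the control libraries. Chga, the granule protein chromogranin A, was not set apart and had 112 and 180 CPM in the ethanol libraries, against 42.6 and 335 CPM in the control libraries, which enclosed the ethanol values. The direction of its fold change differed between tools. The hormone genes Pyy and Insl5 are named with their values known. Pyy, the gene of peptide YY, had 72.3 and 57.9 CPM in the ethanol libraries, against 0.58 and 616 CPM in the control libraries. Insl5, the gene of an insulin-like peptide of the colon, had 72.8 and 148 CPM in the ethanol libraries, against 41.8 and 491 CPM in the control libraries. Both had control values on either side of the ethanol values. Dclk1, a tuft cell kinase, had 65.3 and 10.9 CPM in the ethanol libraries, against 54.8 and 74.9 CPM in the control libraries.

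Stem cell and Wnt genes showed no common direction. Of 23 tested crypt stem cell genes, 2 were set apart higher and 2 lower (median log2 fold change -0.25), and of 19 tested Wnt targets and feedback genes 1 was set apart higher and 2 lower (median -0.20). Lgr5, the receptor that marks cycling crypt stem cells, had 47 and 3 counts in the ethanol libraries, against 51 and 19 counts in the control libraries, and Ascl2, a stem cell transcription factor, had 34 and 3 counts in the ethanol libraries, against 19 and 0 counts in the control libraries. Olfm4 had 9 and 0 counts in the ethanol libraries, against 0 and 39 counts in the control libraries. No difference in these genes was detectable at this depth. Rnf43, a ubiquitin ligase that removes Wnt receptors and is itself induced by Wnt (chromosome 11, 87662722 to 87735539), had 8.49 and 7.42 CPM in the ethanol libraries, against 62.9 and 53.8 CPM in the control libraries. In counts this was 35 and 15 in the ethanol libraries, against 217 and 84 in the control libraries, with a log2 fold change of -2.87 ± 0.64 (SE, n = 2 each). Notum, a Wnt-inactivating enzyme that Wnt induces, had 0 and 2 counts in the ethanol libraries, against 78 and 17 counts in the control libraries. Axin2, a further feedback target of Wnt, had 9.71 and 12.4 CPM in the ethanol libraries, against 24.1 and 47.4 CPM in the control libraries, with a gap just under 2-fold. The higher member was Fzd5, a Wnt receptor, with 106 and 128 CPM in the ethanol libraries, against 29.3 and 7.68 CPM in the control libraries. Igfbp4 and Tnfrsf19 were the stem cell list's higher members, with 81 and 22 counts of Igfbp4 in the ethanol libraries and none in the control libraries. Among ligands and receptors of the niche, 4 of 21 tested (19%) were set apart higher and 0 lower, beside 9.45% higher over all tested genes. Erbb2 was among these 4, with 76 and 81.2 CPM in the ethanol libraries, against 33.1 and 30.1 CPM in the control libraries.

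Cell division genes were not separated as a group. Of 40 tested cell cycle and replication genes, 1 (2.5%) was set apart higher and 2 (5%) lower, beside 9.45% and 3.34% over all tested genes. The list's median log2 fold change was -0.58. Its higher member was Bub1, with a log2 fold change of 1.725, and its lower members were Mcm5 and Cdc20. Mki67, the proliferation antigen, had 34.7 and 28.7 CPM in the ethanol libraries, against 76.9 and 18.6 CPM in the control libraries, which enclosed the ethanol values. Mcm5, a subunit of the replicative helicase, had 9.47 and 6.93 CPM in the ethanol libraries, against 51.9 and 22.4 CPM in the control libraries. Cdc20, an activator of the anaphase-promoting complex, had 15.8 and 5.44 CPM in the ethanol libraries, against 42.6 and 39 CPM in the control libraries. Of 20 tested genes of a separate p53 target list, 1 (5%) was set apart higher and 1 (5%) lower. The lower gene was Gtse1, a p53-inhibiting protein of G2 and S phase. It had 9 and 3 counts in the ethanol libraries, against 152 and 21 counts in the control libraries. Hes1, a Notch target, had 54.4 and 45 CPM in the ethanol libraries, against 108 and 41.6 CPM in the control libraries.

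**Figure D5:**
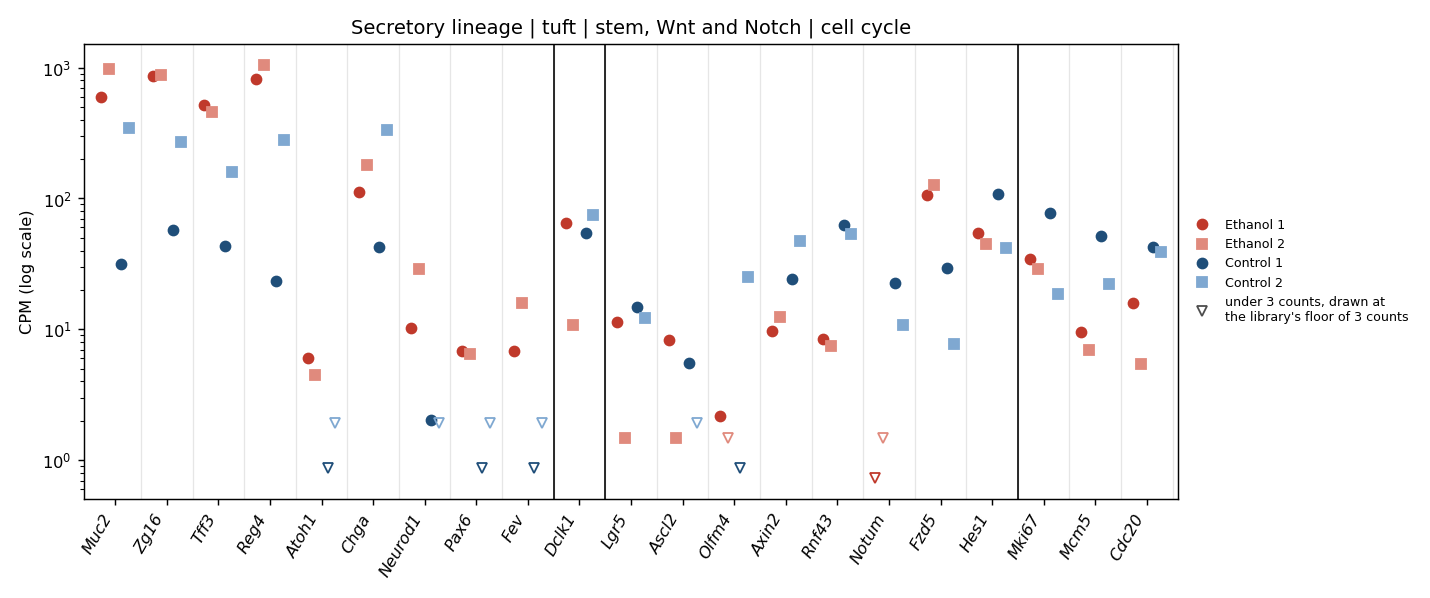
CPM on a log scale in each library for secretory lineage genes, the tuft cell gene Dclk1, stem cell, Wnt and Notch genes, and cell cycle genes, parted by black lines; open triangles mark fewer than 3 counts. The control libraries are wide apart for Muc2, Reg4 and Chga, while Rnf43, Notum, Mcm5 and Cdc20 are lower in both ethanol libraries.

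A fetal-like state of the epithelium is known from regenerating crypts. Of 20 tested genes of such epithelium, 0 were set apart higher and 3 (15%) lower, beside 9.45% and 3.34% over all tested genes. The list's median log2 fold change was -0.79. Anxa1, an annexin, had 115 and 138 CPM in the ethanol libraries, against 283 and 354 CPM in the control libraries (edgeR adjusted p = 0.0906). Anxa8, another annexin, had 64.8 and 41.1 CPM in the ethanol libraries, against 132 and 188 CPM in the control libraries.

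Transcription factors of gut segments were set apart in 7 of 27 cases higher and 1 lower (median log2 fold change 0.83). Cdx1, a caudal homeobox factor of intestinal epithelium, had 27.4 and 52 CPM in the ethanol libraries, against 2.9 and 8.32 CPM in the control libraries. Cdx2, its relative, had 87.4 and 99 CPM in the ethanol libraries, against 49.3 and 53.8 CPM in the control libraries, apart by less than 2-fold. Hnf4a, a nuclear receptor of absorptive cells, had 80.8 and 109 CPM in the ethanol libraries, against 29 and 51.2 CPM in the control libraries. Klf4, a factor of surface and goblet cells, had 305 and 620 CPM in the ethanol libraries, against 47.6 and 145 CPM in the control libraries (edgeR adjusted p = 0.109). Creb3l3, a regulator of lipid genes in small intestine and liver, had 79 and 46 counts in the ethanol libraries and none in the control libraries. Its lower ethanol library was at least 9.99-fold above the floor of control library 2, a bound that covers counting error only. Gata4, a factor of the proximal small intestine, was the lower member with 7 and 0 counts in the ethanol libraries, against 16 and 19 counts in the control libraries.

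Most energy metabolism genes were not set apart. Of 29 tested genes of fatty acid oxidation and ketogenesis, 6 (20.7%) were set apart higher and 0 lower (median log2 fold change 0.94). Of 50 tested genes of oxidative phosphorylation 6 (12%) were set apart higher and 0 lower (median 0.50), a share near the 9.45% over all tested genes. Acads, short-chain acyl-CoA dehydrogenase, had 538 and 431 CPM in the ethanol libraries, against 128 and 87 CPM in the control libraries (edgeR adjusted p = 0.037). Acadm, the medium-chain enzyme, had 145 and 244 CPM in the ethanol libraries, against 37.4 and 21.8 CPM in the control libraries. Atp5d, a subunit of ATP synthase, had 550 and 544 CPM in the ethanol libraries, against 249 and 269 CPM in the control libraries (edgeR adjusted p = 0.139). Glycolysis and hypoxia genes gave 0 higher and 1 lower of 29, cholesterol and fatty acid synthesis genes 1 higher and 0 lower of 30, and ribosomal protein genes 0 higher and 2 lower of 42. Maoa, which breaks down serotonin and other amines, had 1365 and 1809 CPM in the ethanol libraries, against 218 and 306 CPM in the control libraries (edgeR adjusted p = 0.0263). Elovl5, an elongase of polyunsaturated fatty acids, was on the lower side with 39.6 and 25.2 CPM in the ethanol libraries, against 138 and 115 CPM in the control libraries.

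Stress and immune lists held scattered members. Of 30 tested NRF2 targets, 4 (13.3%) were set apart higher and 1 (3.33%) lower. Of 26 genes of the unfolded protein response 3 (11.5%) were higher and 0 lower, and of 14 heat shock genes 0 were higher and 1 (7.14%) lower. Over all tested genes the shares were 9.45% higher and 3.34% lower. Nqo1, a quinone reductase, had 48.8 and 89.6 CPM in the ethanol libraries, against 6.09 and 19.2 CPM in the control libraries. Mt2, a metallothionein, had 1625 and 869 CPM in the ethanol libraries, against 280 and 324 CPM in the control libraries (edgeR adjusted p = 0.0656). Among 18 immediate early genes, 3 (16.7%) were set apart higher and 1 (5.56%) lower. Nr4a1, an inducible nuclear receptor, was that lower gene with 8.01 and 9.9 CPM in the ethanol libraries, against 86.2 and 46.1 CPM in the control libraries. Of 7 tested antigen presentation genes, 4 were set apart higher and 0 lower (median log2 fold change 1.76, or 1.21 with genes lacking a control count at their bound). H2-K1, a class I histocompatibility molecule, had 1040 and 1091 CPM in the ethanol libraries, against 228 and 180 CPM in the control libraries (edgeR adjusted p = 0.0257), although class I genes may share reads. B2m, its partner chain, had 292 and 194 CPM in the ethanol libraries, against 71.9 and 71.7 CPM in the control libraries. Interferon-stimulated genes gave 2 higher (11.1%) and 0 lower of 18. Btnl1, a butyrophilin-like protein that keeps intraepithelial lymphocytes in mouse gut, had 137 and 72 counts in the ethanol libraries and none in the control libraries. Its lower ethanol library was at least 17.3-fold above the floor of control library 2, a bound that covers counting error only.

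Several macrophage and dendritic cell markers also stood higher in the ethanol libraries. Of the 10 tested markers whose list sum is given above, 3 (30%) were set apart higher and 0 lower, beside 9.45% higher over all tested genes. These 3 were Itgam, Ctss and Tyrobp. Csf1r, the receptor for macrophage growth factor, had 1000 and 98 counts in the ethanol libraries, against 87 and 15 counts in the control libraries. Scaled to depth, its gap was under 2-fold and it was not set apart. Ctss, a lysosomal protease, had 933 and 240 counts in the ethanol libraries, against 134 and 0 counts in the control libraries. Itgam had 30 and 42 counts in the ethanol libraries and none in the control libraries. Tyrobp had 146 and 40 counts in the ethanol libraries, against 11 and 0 counts in the control libraries. The ranges of Fcgr1, Fcgr3 and Fcer1g overlapped between the groups, and the log2 fold change of Fcgr3 was negative (-0.47). The defining markers C1qa, C1qb and C1qc together had 1 and 0 counts in the ethanol libraries, against 0 and 1 count in the control libraries, and Mrc1 and Itgax had none. Their part in the differences of other genes was not tested. Of the T and innate lymphocyte list, 1 marker was tested, Ptprc, with 61 and 14 counts in the ethanol libraries, against 10 and 0 counts in the control libraries. Of 7 tested neuron and glia markers, 1 was set apart higher and 2 lower. The lower ones were Rfx4 and Lhx9, transcription factors best known from the developing brain. They had no count in the ethanol libraries, and in the control libraries Rfx4 had 24 and 78 counts and Lhx9 had 31 and 25 counts. Housekeeping genes gave 2 higher (10.5%) and 1 lower (5.26%) of 19, beside 9.45% and 3.34% over all tested genes.

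Among genes set apart lower that averaged 50 counts or more, those with the smallest p-values were Entpd3, Akr1b8, Ly6c1, Rnf43, Nr4a1, Elovl5, Parva and Tns3. Entpd3, an enzyme that breaks down extracellular nucleotides (chromosome 9, 120539818 to 120568327), had 23 and 14 counts in the ethanol libraries, against 222 and 113 counts in the control libraries. Scaled to depth this was 5.58 and 6.93 CPM in the ethanol libraries, against 64.4 and 72.3 CPM in the control libraries, and its log2 fold change was -3.45 ± 0.62 (SE, n = 2 each). Ly6c1, a surface protein with a near-identical neighbour (Ly6c2) that may share its reads, had 26 and 16.3 CPM in the ethanol libraries, against 400 and 120 CPM in the control libraries. None of these 8 genes had a mean of 500 counts, and none was called by edgeR.

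Among the 26 called genes, 13 lay outside the rule for naming genes and are named because they were called, with their values known: Akr1c19, Atp6ap1, Chtf8, Ckmt1, Fam108c, Gna11, Grn, Lamp1, Mapk3, Neurl1b, Selenbp1, St3gal4 and Ugdh. Lamp1, a lysosomal membrane protein, had 1002 and 1078 CPM in the ethanol libraries, against 299 and 188 CPM in the control libraries. Grn, the gene of progranulin, had 735 and 539 CPM in the ethanol libraries, against 149 and 78.1 CPM in the control libraries. Atp6ap1, an accessory subunit of the lysosomal proton pump, had 687 and 452 CPM in the ethanol libraries, against 166 and 141 CPM in the control libraries. Ugdh, which makes the glucuronic acid donor used by conjugating enzymes, had 483 and 599 CPM in the ethanol libraries, against 59.2 and 107 CPM in the control libraries. Spint2, an inhibitor of membrane serine proteases that a list did hold, had 1445 and 1437 CPM in the ethanol libraries, against 153 and 239 CPM in the control libraries (edgeR adjusted p = 0.0235).

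The ethanol effect in colon organoids was set against that in jejunum organoids, of which the series has 4 ethanol and 4 control libraries. With limma and a weight for each group, the difference between the effects passed an adjusted p of 0.05 for 0 of 13195 genes (0%), with 1017 genes at an unadjusted p under 0.05 and a smallest adjusted p of 0.106. The mean weight of a library was 0.438 for ethanol colon organoids and 0.138 for control colon organoids, against 2.33 for ethanol and 1.74 for control jejunum organoids. Without control colon library 1 the same fit gave 3740 genes and without control colon library 2 it gave 2005. Cdhr5 had 164 ± 25.1 CPM in ethanol jejunum organoids and 150.5 ± 32.4 CPM in control jejunum organoids (SD, n = 4 each). Its effect in colon exceeded that in jejunum by 3.22 ± 0.82 on the log2 scale, which did not pass (limma adjusted p = 0.534). Cldn7 had 602 ± 38.2 CPM in ethanol jejunum organoids and 597 ± 65.2 CPM in control jejunum organoids, with a difference between effects of 2.47 ± 0.44 (limma adjusted p = 0.25). Guca2a had 148 ± 40.1 CPM in ethanol jejunum organoids and 286 ± 134 CPM in control jejunum organoids, the direction opposite to colon, with a difference of 5.21 ± 1.78 (limma adjusted p = 0.615). Rnf43 had 24.5 ± 4.25 CPM in ethanol jejunum organoids and 27.6 ± 4.11 CPM in control jejunum organoids, with a difference of -2.73 ± 0.86 (limma adjusted p = 0.585).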

How the data were processed

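Colon organoid RNA was measured by 3' tag sequencing (QuantSeq) in 4 libraries, with total counts of 2601537 to 4595625 in the ethanol group and 1337068 to 2806471 in the control group. The authors deposited raw counts per gene for 27 libraries and 23420 gene symbols, without blank or summary entries. Tools listed in the submitters' processing notes are Trimmomatic 0.32, BWA, HTSeq, edgeR and limma, with build mm10; settings and the use of strand are not given in the sources used here, so overlapping genes may share counts. A normalized table that the authors deposited too, on a log-like scale, was treated as a score and used for 1 alternative with limma. Gene positions came from GENCODE vM21 on GRCm38, the assembly also named mm10 (21737 symbols, 92.8%).

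Counts of the 4 libraries were fitted with edgeR 4.0.16 (R 4.3.3): TMM, filterByExpr, robust quasi-likelihood fit and two-sided F-test, Benjamini-Hochberg adjusted over all genes tested. TMM factors and totals include Rn45s. The comparison with jejunum organoids used limma 3.58.1 (voom with a weight per group, 12 libraries). DESeq2 1.42.0 was an alternative. Code was tested on simulated data. No library repeated another: chi-square per degree of freedom was 15.8 in the ethanol pair and 34.3 in the control pair, so all 4 were kept.

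The 58 gene lists, the named genes and the tests were chosen with earlier results of these data known, so nothing in them is independent support. Of 1200 listed genes, 1187 were found, 14 of them by an older symbol. Lists share some genes, such as Slc9a3 and Slc10a2, so the counts of different lists overlap. Named genes are the 8 with the smallest edgeR p per direction among set-apart genes that averaged 50 counts or more, up to 3 set-apart members per list and direction, 35 fixed genes, and marker lists. With genes lacking a count in 1 group put at their bound (the lowest library of the other group over the higher floor of 3 counts per library), a list's median is given beside the fitted one where it moved. Some genes that the rule or the lists hold are not reported here.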

Additional observations from a re-analysis of the deposited data

How the results depend on the processing

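On 4 libraries, edgeR called 0 genes with TMM, with RLE size factors, with Rn45s left out and at a mean minimum of 100 counts, as did limma with weights per group on 12 organoid libraries and limma on the authors' normalized table. The count was 131 with DESeq2, 88 with limma-voom, 2237 with edgeR on 12 organoid libraries, 179 without a filter, 26 at a mean minimum of 500 counts and 23 to 1548 with a library left out. Deviations of same-numbered libraries had a correlation of 0.01 over 8941 genes. With so few libraries this cannot decide whether a donor number links libraries. The fit with the replicate block called 182 genes, 30 of which had a library with no count. At that minimum, the 26 calls became 65 with DESeq2 and 53 with limma-voom, which held 26 and 18 of the 26, and 0 to 67 with a library left out. All 26 remained called with RLE size factors (27 calls), with Rn45s left out (26) and with the replicate block (36). Genes set apart higher numbered 867 with RLE size factors, 231 at a mean minimum of 100 counts, 1575 at a gap of 1.5-fold, 466 at a gap of 3-fold and 1711 to 3256 with a library left out; those set apart lower numbered 413, 44, 710, 129 and 668 to 1863 under the same settings. The difference between colon and jejunum effects passed for 1212 genes with edgeR and a spread shared over groups, and for 0 to 3740 with a colon organoid library left out. The cause of these changes was not tested, except that fewer libraries make the gap easier to reach.

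Of 167 named genes, 146 were set apart, and none of those reversed where it could be fitted (145 with RLE size factors, 94 in the normalized table, 139 without ethanol library 1). Reversals were found in genes that were not set apart. Chga (-0.36) had a log2 fold change of 0.46 with limma-voom, 0.38 with limma on 12 libraries, 0.24 with the replicate block, 0.026 in the normalized table and -1.22 to 1.74 with a library left out. Rn45s (0.91) had -0.019 in the normalized table. With a library left out, Adh1 ran from -2.65 to 0.59, Aldh1a1 from -0.22 to 3.89, Ascl2 from -0.89 to 6.69, Cldn2 from -1.81 to 0.19, Dclk1 from -2.57 to 0.011, Hes1 from -1.14 to 0.24, Mki67 from -1.30 to 0.76 and Tjp1 from -0.49 to 1.54. RLE size factors moved the median log2 fold change of all genes by -0.09 and leaving out Rn45s by -0.02. Depth limits genes with few counts: under a mean of 20 counts, 20.9% of genes were set apart higher and 6.05% lower, in controls whose median fold between replicates was 4.84.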
